A study of Mus musculus with 4 samples.

Results

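5-hydroxymethylcytosine (5hmC) at 6 genes, Mtss1, Atp9a, Nrxn2, Gse1, Plec and Scube1, was compared between mouse embryonic stem cells (ESC) and neural progenitor cells (NPC). The genes were chosen by 5hmC enrichment over input in these same libraries, as the places of the longest runs of enriched tiles or of high peaks, so their levels of 5hmC are a description and carry no test. Each gene is represented by a fixed window on genome build mm9. Together the 6 windows span 701 kb and hold 140 of the 476819 tiles of 5 kb that passed a filter on input coverage, and none of their tiles was lost to that filter. The gene names are those given to the windows, and a window may hold only a portion of its gene or reach past it. Since no annotation of mm9 was used here, exons, introns and start sites were not placed on the reads.

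DNA of both cell types was immunoprecipitated with a 5hmC antibody and sequenced (hMeDIP-seq). The ESC were of the 46C line (ESC-46C, strain 129/Ola), kept in serum with leukemia inhibitory factor. The NPC were rosette-like, Sox1-GFP-positive cells derived from that same line, taken on day 9 of monolayer differentiation in N2B27, and neither cell type had received siRNA or shRNA. There were 4 libraries, a 5hmC and an input library per cell type and 1 library per group, all from 1 parental line. The barcoded DNA of both cell types was mixed before precipitation, so that ESC and NPC reads come from a single immunoprecipitation. The libraries held 7123491 distinct reads (ESC 5hmC), 5059243 (ESC input), 1742680 (NPC 5hmC) and 6588254 (NPC input) on chromosomes 1 to 19 and X. Genome-wide, NPC had 0.188 of the ESC level of 5hmC per input. Expression was not measured, so the labelled cell types could not be checked against marker genes.

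5hmC is made from 5-methylcytosine by the TET dioxygenases, mostly at CpG dinucleotides. It is known as an intermediate of DNA demethylation and as a mark of gene bodies and enhancers that is abundant in embryonic stem cells and again in mature neurons. The 6 genes share no pathway. Mtss1 encodes a scaffold that bends membranes and binds actin, and Plec encodes plectin, a large linker of intermediate filaments to other cell structures. Atp9a encodes a P-type ATPase of the phospholipid flippase family in endosomal membranes, and Nrxn2 a neurexin, a presynaptic adhesion receptor. Scube1 encodes a secreted and cell-surface glycoprotein with EGF-like and CUB domains, and Gse1 a nuclear coiled-coil protein found with histone deacetylase complexes.

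5hmC is made mostly at CpG, so the start regions of these genes are shown with each CpG in capitals. A count of CpGs does not tell how many were methylated, which was not measured here. RefSeq promoters were listed for 3 of the 6 genes by symbol, on build GRCm38.p6. For each gene the start with most CpGs is printed, as the 250 bases before it, read 5′ to 3′. These sequences could not be placed on the mm9 reads, and no 5hmC value belongs to them.
Atp9a (chr2:168741801-168742050, minus strand): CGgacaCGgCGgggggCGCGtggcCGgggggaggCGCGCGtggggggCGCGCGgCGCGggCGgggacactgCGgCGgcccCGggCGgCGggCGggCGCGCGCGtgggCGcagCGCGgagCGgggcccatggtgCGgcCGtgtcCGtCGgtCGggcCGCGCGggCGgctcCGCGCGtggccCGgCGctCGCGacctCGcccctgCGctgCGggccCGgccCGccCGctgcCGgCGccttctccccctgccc
Gse1 (chr8:120537159-120537408, plus strand): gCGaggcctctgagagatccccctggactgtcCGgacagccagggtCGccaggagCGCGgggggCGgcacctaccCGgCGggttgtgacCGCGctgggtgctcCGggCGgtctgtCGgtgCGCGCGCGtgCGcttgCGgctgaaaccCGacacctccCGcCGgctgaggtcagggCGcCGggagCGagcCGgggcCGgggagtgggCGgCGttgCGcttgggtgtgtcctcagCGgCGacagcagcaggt
Scube1 (chr15:83725040-83725289, minus strand): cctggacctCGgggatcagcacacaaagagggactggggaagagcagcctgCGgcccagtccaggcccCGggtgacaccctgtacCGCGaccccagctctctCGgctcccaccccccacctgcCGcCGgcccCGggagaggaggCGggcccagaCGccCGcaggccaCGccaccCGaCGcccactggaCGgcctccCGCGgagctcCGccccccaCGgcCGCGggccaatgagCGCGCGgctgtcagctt
The dinucleotide CG, which reads the same on both strands, occurred 53 times in the Atp9a sequence, 32 times in that of Gse1 and 25 times in that of Scube1. The median over all 32851 listed promoters was 6. As many CpGs as at Atp9a were found in 0.0365% of them, as many as at Gse1 in 4.58% and as many as at Scube1 in 10.7%. These shares are over single promoters, whereas the printed start was the richest of several at Atp9a and Gse1, so they make these genes look more extreme. Atp9a also had a listed start with only 2 CpGs, out of 4 starts, whereas the lowest of 3 starts of Gse1 had 13.

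The level used below is the count of 5hmC reads over that of input reads, divided by the same quantity over the genome, so that 1 is the genome-wide level of that cell type. Intervals are 95% intervals for counting error. The spread between cultures and precipitations is unknown with 1 library per group, and no p-value was computed. In bulk DNA, less 5hmC in every cell and fewer cells that carry it cannot be told apart.

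In ESC, all 6 windows lay above the genome-wide level. The Plec window (chr15:76000000-76065000) was highest. It held 1797 5hmC and 267 input reads in ESC, and its level was 4.78 (4.20 to 5.46). In NPC it held 108 5hmC and 379 input reads, and its level was 1.08 (0.862 to 1.34), an interval that includes the genome-wide level. Plec thus went from the highest of the 6 levels in ESC to the lowest in NPC. Its 5hmC per input, not divided by that of the genome, was 23.6-fold lower in NPC, beside 5.32-fold over the whole genome.

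The Mtss1 window (chr15:58770000-58920000) held 2470 5hmC reads over 503 input reads in ESC and 313 over 616 in NPC. Its level was 3.49 (3.17 to 3.84) in ESC and 1.92 (1.67 to 2.20) in NPC. The Atp9a window (chr2:168450000-168570000) held 2184 over 407 reads in ESC and 206 over 487 in NPC, with levels of 3.81 (3.43 to 4.24) and 1.60 (1.35 to 1.89). The Nrxn2 window (chr19:6418000-6534000) held 1861 over 462 reads in ESC and 311 over 573 in NPC, with levels of 2.86 (2.58 to 3.17) and 2.05 (1.78 to 2.36). These windows, for a membrane scaffold, a flippase-family protein and a synaptic receptor, were all above the genome-wide level in both cell types, and further above it in ESC.

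The Gse1 window (chr8:123010000-123110000) stood above the genome by much the same factor in both cell types. It held 2173 5hmC over 443 input reads in ESC and 429 over 471 in NPC, giving 3.48 (3.15 to 3.86) and 3.44 (3.01 to 3.93). With the inputs of both cell types summed, these levels were 3.89 and 3.14. The Scube1 window (chr15:83430000-83580000) was the only one of the 6 with a higher relative level in NPC. It held 1218 over 601 reads in ESC, a level of 1.44 (1.30 to 1.59), and 399 over 703 in NPC, a level of 2.15 (1.89 to 2.43).

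Per input read, NPC held less 5hmC than ESC in each window. The genes were chosen on 5hmC reads that enter the NPC/ESC ratio. Its values, their order and their place against the genome follow in part from that choice and are a description. The NPC/ESC ratio was 0.0423 (0.0327 to 0.0547) at Plec, 0.0788 (0.0649 to 0.0957) at Atp9a, 0.103 (0.0876 to 0.122) at Mtss1 and 0.135 (0.113 to 0.161) at Nrxn2. The genome-wide ratio of 0.188 (0.187 to 0.188) lay above these 4 intervals. At Gse1 the ratio was 0.186 (0.157 to 0.219), at the genome-wide value. At Scube1 it was 0.280 (0.239 to 0.329), above the genome-wide value, yet still a 3.57-fold lower 5hmC per input in NPC. In this order each window exceeded the one before it by 1.30-fold to 1.86-fold. The interval of the step excluded 1 in each case, most narrowly between Atp9a and Mtss1 (1.31, 1.02 to 1.70) and between Mtss1 and Nrxn2 (1.30, 1.03 to 1.65). The order of the levels was less resolved. In ESC, Gse1 and Mtss1 differed by 1.001-fold (0.870 to 1.15) and Mtss1 and Atp9a by 1.09-fold (0.947 to 1.26). In NPC, Atp9a and Mtss1 (1.20, 0.972 to 1.49), Mtss1 and Nrxn2 (1.07, 0.880 to 1.30), and Nrxn2 and Scube1 (1.05, 0.869 to 1.26) did not differ beyond counting error.

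**Figure D1:**
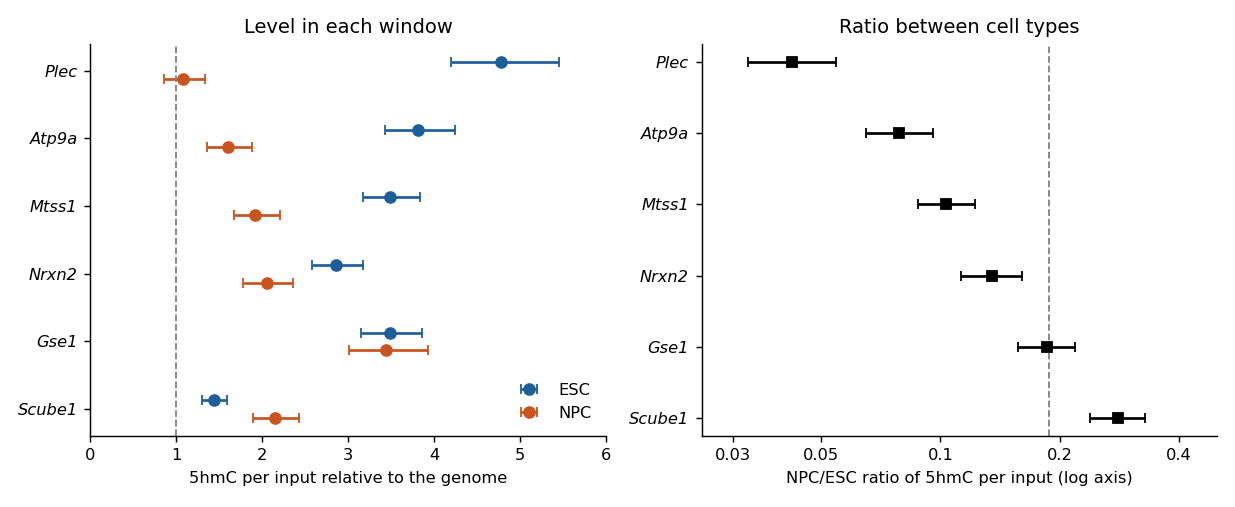
Left, 5hmC per input of each window relative to the genome in ESC (blue) and NPC (orange), with the genome-wide level of 1 as a dashed line. Right, the NPC/ESC ratio of 5hmC per input on a log axis, with the genome-wide ratio of 0.188 dashed. Points are ratios between libraries, with 1 library per group, and bars are 95% counting intervals. The ratio climbs from 0.0423 at Plec to 0.280 at Scube1, and the NPC point exceeds the ESC point only at Scube1.

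Each window was placed among all windows of its own length laid end to end over the genome, with summed input between 0.5 and 2 times their median. These places follow in part from how the genes were chosen. In ESC, none of 35104 windows exceeded Plec, 2 of 19255 exceeded Atp9a, 6 of 15438 exceeded Mtss1, 14 of 23025 exceeded Gse1 and 99 of 19883 exceeded Nrxn2. Scube1 was exceeded by 17.1%. In NPC the order was another one. Gse1 was exceeded by 8 windows and Scube1 by 56, whereas 0.764% exceeded Nrxn2, 0.920% Mtss1, 3.98% Atp9a and 29.3% Plec. A lower NPC/ESC ratio than at Plec was found in 6 windows. For Atp9a the share was 1.07%, for Mtss1 4.88%, for Nrxn2 15.6% and for Gse1 32.1%. Scube1, at 53.4%, was close to the median window, whose ratio was 0.261 against the 0.280 of Scube1. The median gives each window equal weight, while the genome-wide ratio weights them by reads.

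Tiles were called enriched at 10 or more 5hmC reads and at least 2-fold over own input after scaling to depth. In ESC 95 of the 140 tiles (67.9%) were enriched, against 10.6% of all kept tiles. In NPC 55 (39.3%) were enriched, against 5.82%, and 36 (25.7%) were enriched in both, against 2.18%. The choice of the genes used these calls, so nothing is read from the excess. By gene, ESC and NPC calls numbered 25 and 7 of 30 tiles at Mtss1, 22 and 6 of 24 at Atp9a, 21 and 9 of 23 at Nrxn2, and 10 and 2 of 13 at Plec. They numbered 12 and 18 of 20 tiles at Gse1 and 5 and 13 of 30 at Scube1. Every NPC tile at Mtss1, Atp9a and Plec was also enriched in ESC. At Gse1 7 tiles and at Scube1 11 tiles were enriched in NPC alone, and at Nrxn2 1.

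Of the 114 window tiles enriched in either cell type, 53 (46.5%) lay at least 2-fold below the genome-wide NPC/ESC ratio, against 41.9% of enriched tiles over the genome. Another 18 (15.8%) lay at least 2-fold above it, against 21.0%. The distance of these shares from those of the genome depended on the settings of the call. With no minimum of 5hmC reads the same shares of 46.5% and 15.8% stood against 28.3% and 43.3% of the genome. With a pseudocount of 5 reads they were 25.5% against 14.6% and 20.8% against 33.6%. With a minimum of 20 5hmC reads the direction was reversed, at 51.5% against 53.6% and 9.90% against 6.55%. Tiles below the ratio numbered 16 of 22 enriched tiles at Atp9a, 14 of 25 at Mtss1, 9 of 10 at Plec and 7 of 22 at Nrxn2. At Scube1 10 of 16 and at Gse1 7 of 19 lay above it, and the 1 remaining tile above it was at Nrxn2. None of the 114 was at least 2-fold higher in NPC than in ESC outright, against 1.02% of enriched tiles over the genome. For independent tiles a count of 0 of 114 would allow a share of up to 2.63%. These tiles adjoin and were chosen on 5hmC, so that limit does not hold for them. The count also rests on point values, and the interval of the highest ratio, at Gse1, reached 4.65. The tiles nearest to the 2-fold line were a pair in Mtss1 in ESC, at 1.98 (58785001 to 58790000) and 2.02 (58905001 to 58910000). In NPC they were 1.99 in Atp9a (168555001 to 168560000) and 2.04 in Mtss1 (58790001 to 58795000).

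**Figure D2:**
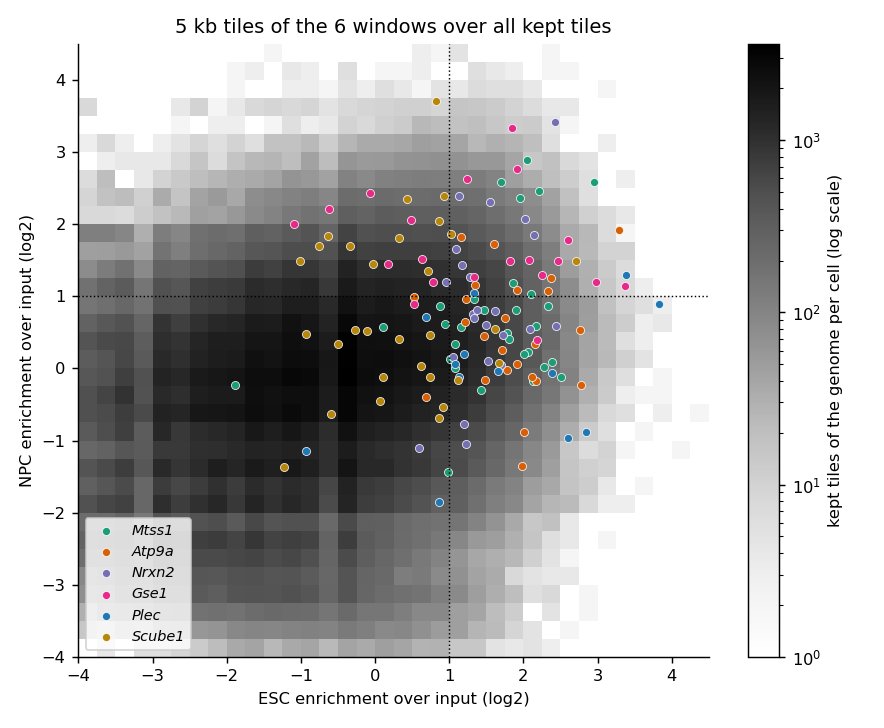
NPC against ESC enrichment over input for 5 kb tiles, both on log2 scales with a pseudocount of 0.5 reads. Grey cells count all 476819 kept tiles, coloured points are the 140 tiles of the windows, and dotted lines mark 2-fold enrichment. Plec tiles reach farthest right, and Scube1 and Gse1 tiles fill the upper left region that Mtss1 and Atp9a tiles leave empty.

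Runs of enriched tiles in the windows differed in length between the 2 cell types. The windows were laid around long runs or peaks in these libraries. Run lengths and ranks, here and below, follow in part from that choice and are a description. Mtss1, Atp9a and Nrxn2 carried broad ESC 5hmC. The ESC run at Mtss1 spanned 105 kb (58790001 to 58895000) and held 77.7% of the window's ESC 5hmC reads. That at Atp9a spanned 105 kb (168450001 to 168555000) and held 93.8%, and that at Nrxn2 spanned 95 kb (6420001 to 6515000) and held 86.0%. No ESC run among 31984 was longer than the first pair. The Nrxn2 run was 1 of 4 of its length, and other runs of 95 kb lay on chromosome 11 (117875001 to 117970000) and chromosome 14 (118990001 to 119085000). In NPC the longest runs inside these windows were 10 kb at Mtss1 and Nrxn2 and 5 kb at Atp9a, lengths reached by 16.6% and all of the 22599 NPC runs. The NPC 5hmC library had the fewest reads, and the part of depth in run length was not tested.

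At Mtss1 the NPC reads were gathered in a few tiles. From 58815001 to 58820000 there were 169 ESC reads over 15 input reads and 40 NPC reads over 25, levels of 8.002 (4.72 to 14.6) and 6.05 (3.58 to 10.4). This tile was the richest of the window in ESC. The NPC maximum was at 58860001 to 58865000, with 26 reads over 13 (7.56, 3.75 to 16.03) and an ESC level of 4.26 (2.45 to 7.93). From 58885001 to 58890000, in contrast, ESC held 147 reads over 18 and NPC 5 over 22. The NPC/ESC ratio was 0.0278 (0.00756 to 0.0899) there and 0.339 (0.131 to 0.886) from 58805001 to 58810000, the highest among the window's tiles with 10 or more 5hmC reads. ESC was above the genome at both places, at 5.80 (3.54 to 10.1) and 3.35 (1.86 to 6.46), while NPC was above it only at the latter (0.859, 0.254 to 2.33, and 6.05, 3.05 to 12.4). From the lower to the upper side of the midpoint the ESC level changed by 0.768-fold (0.630 to 0.935) and that of NPC by 0.864-fold (0.651 to 1.15).

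In Atp9a the richest tile in both cell types was 168500001 to 168505000, with 199 ESC reads over 14 (10.1, 5.88 to 18.8) and 28 NPC reads over 28 (3.78, 2.16 to 6.62). The lowest ratio, 0.0126 (0.000294 to 0.0976), was at 168530001 to 168535000, where a single NPC read over 14 input reads stood against 91 ESC reads over 16. The highest, 0.294 (0.114 to 0.760), was at the upper end of the run, from 168550001 to 168555000. No tile of Atp9a lay 2-fold above the genome-wide ratio. The sides of its window differed little, with an ESC change of 0.783-fold (0.630 to 0.975) and an NPC change of 0.866-fold (0.617 to 1.22).

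In Nrxn2 the NPC maximum lay at the upper end of the window. From 6530001 to 6535000, a tile that reaches past the window's end, 35 NPC reads over 12 gave 11.0 (5.59 to 23.3) and 79 ESC reads over 10 gave 5.61 (2.90 to 12.2). Its ratio was 0.369 (0.130 to 1.04). Of its 12 NPC input reads 2 were on the plus strand. The NPC level there was 39.7 from plus-strand and 5.29 from minus-strand reads. The tile with the highest ESC value after the pseudocount, 6470001 to 6475000, had 148 ESC reads over 19 (5.53, 3.42 to 9.45) but 10 NPC reads over 26 (1.45, 0.626 to 3.12). The lowest and highest ratios were 0.0333 (0.00621 to 0.122) at 6480001 to 6485000 and 0.448 (0.213 to 0.947) at 6445001 to 6450000. The latter held 35 NPC reads, of which 31.4% were on the plus strand. The sides of the Nrxn2 window did not differ beyond counting error, at 0.888-fold (0.720 to 1.10) in ESC and 1.02-fold (0.765 to 1.36) in NPC.

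Plec carried its ESC 5hmC in a narrow block at the lower end of the window. The ESC run from 75995001 to 76025000, which starts just outside the window, held 77.6% of the window's ESC 5hmC reads. Over the run the level was 8.33 (6.92 to 10.1) in ESC and 1.14 (0.839 to 1.53) in NPC, with a ratio of 0.0257 (0.0180 to 0.0367). Its tallest tile, 76005001 to 76010000, alone held 25.1% of the window's ESC 5hmC reads, 451 over 22 input reads, where NPC held 14 over 29. The tile from 76015001 to 76020000 had 197 ESC reads over 19 and 4 NPC reads over 31, a ratio of 0.0124 (0.00300 to 0.0417). Even the richest NPC tile, 76010001 to 76015000, held only 18 reads over 28 (2.43, 1.27 to 4.55) where ESC held 360 over 24. Next to this block, from 76025001 to 76030000, ESC 5hmC dropped to 19 reads over 26 input reads, below the genome-wide level.

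Gse1 combined both kinds of profile. On the lower side of its midpoint the level was 1.93 (1.65 to 2.27) in ESC and 3.78 (3.13 to 4.57) in NPC, with a ratio of 0.368 (0.286 to 0.472). On the upper side it was 4.93 (4.29 to 5.69) in ESC and 3.14 (2.59 to 3.79) in NPC, with a ratio of 0.119 (0.0942 to 0.152). ESC rose 2.55-fold (2.06 to 3.17) from the lower to the upper side, while NPC changed by 0.830-fold (0.633 to 1.09). The ratio over the whole Gse1 window was close to that of the genome with own inputs, and 0.152 with summed inputs. It thus combined sides whose ratios lay above and below the genome-wide one. ESC fell to 15 reads over 23 input reads from 123055001 to 123060000 and to 21 over 23 in the next tile, where NPC held 17 over 16 and 16 over 13. In the first of these the ratio was 1.63 (0.573 to 4.65), the highest of any window tile with 10 or more 5hmC reads. The NPC maximum of 49 reads over 18 (10.3, 5.89 to 18.8) was at 123070001 to 123075000. The ESC maximum of 297 over 20 (10.5, 6.71 to 17.5) was at 123090001 to 123095000, where NPC had 15 over 26 (2.18, 1.07 to 4.27). A run of 8 tiles enriched in both cell types, from 123065001 to 123105000, was the longest of 8970 such runs in the genome.

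Scube1 had like levels on both sides in ESC and unlike ones in NPC. Its sides had ESC levels of 1.41 (1.23 to 1.61) and 1.48 (1.27 to 1.71). In NPC they had 1.11 (0.887 to 1.37) on the lower and 3.39 (2.88 to 3.99) on the upper side, a 3.07-fold difference (2.34 to 4.03). The NPC run from 83525001 to 83580000, the second longest of 22599, held 59.6% of the window's NPC 5hmC reads and rested on 238 reads over 232 input reads. In ESC no enriched tile of the window adjoined another. The tile from 83565001 to 83570000 held 46 NPC reads over 13 (13.4, 7.11 to 27.0), the highest NPC level of all window tiles, beside 43 ESC reads over 17 (1.80, 1.003 to 3.36). Its ratio was 1.40 (0.562 to 3.53). At 83480001 to 83485000, in the lower side, ESC held 136 reads over 30 and NPC 8 over 30, a ratio of 0.0588 (0.0215 to 0.150). The last tile of the window, 83575001 to 83580000, was the ESC maximum, with 87 reads over 9 (6.87, 3.45 to 15.5), and there NPC fell back to 2.79 (1.29 to 5.86).

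**Figure D3:**
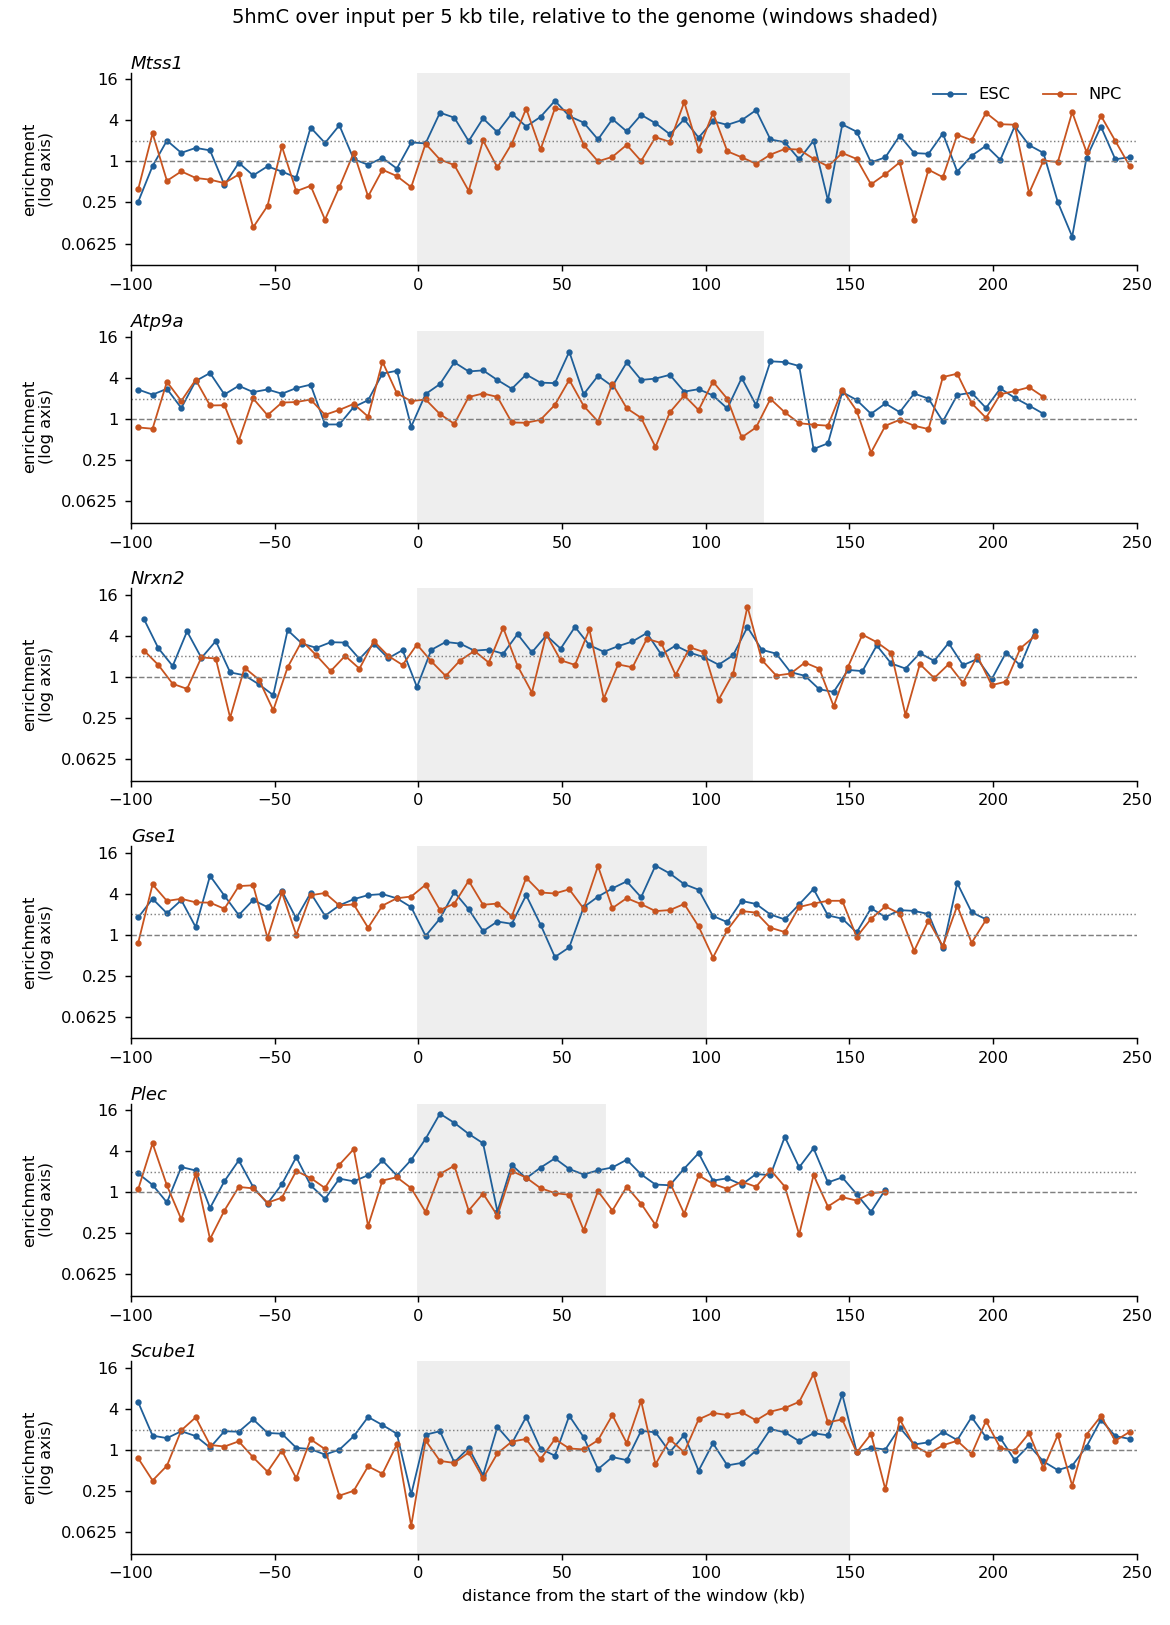
Enrichment over input of each 5 kb tile on a log axis in ESC (blue) and NPC (orange), by distance from the start of the window in kb, with the window shaded and up to 100 kb shown on each side. Dashed and dotted lines mark 1 and 2. The ESC line runs above the NPC line along most of Mtss1 and Atp9a and at the lower end of Plec, and the NPC line runs above along the upper part of Scube1 up to its last tile.

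Within a window the profiles of the cell types were only loosely related. Across tiles, Spearman's rho of ESC and NPC enrichment was 0.211 at Mtss1 (30 tiles), 0.178 at Nrxn2 (23), 0.363 at Plec (13), 0.0919 at Scube1 (30), -0.108 at Atp9a (24) and -0.355 at Gse1 (20). Over all kept tiles it was 0.266. Tiles of a cell type share its libraries, and NPC counts per tile were low. The 5hmC reads were unevenly spread beyond counting noise, for which a variance-to-mean ratio of 1 would be found. That ratio, over tiles of a window, ran from 9.41 (Nrxn2) to 136 (Plec) for ESC 5hmC and from 3.22 (Plec) to 7.89 (Scube1) for NPC 5hmC. In the inputs it ran from 0.874 to 2.52 in ESC and from 1.10 to 2.38 in NPC.

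At 1 kb the ESC maxima were 112 reads at Plec (76005001 to 76006000), 88 at Gse1 (123096001 to 123097000), 73 at Nrxn2 (6481001 to 6482000) and 71 at Scube1 (83482001 to 83483000). Mtss1 followed with 63 (58889001 to 58890000) and Atp9a with 55 (168479001 to 168480000). NPC held 0 reads in the bins of Mtss1 and Nrxn2, 1 in those of Plec and Scube1, 2 in that of Atp9a and 5 in that of Gse1. The NPC maxima were in other bins, at 26 reads in Gse1 (123046001 to 123047000), 22 in Mtss1 (58818001 to 58819000) and 20 in Scube1 (83554001 to 83555000). There ESC held 27, 58 and 14 reads. They numbered 15 in Nrxn2 (6446001 to 6447000), 11 in Atp9a (168465001 to 168466000) and 8 in Plec (76009001 to 76010000), where ESC held 22, 22 and 105 reads. At Plec and Mtss1 the NPC maximum thus lay in a bin with as many ESC reads as the second richest ESC bin. A second bin equalled the maximum in ESC at Atp9a and in NPC at Atp9a and Scube1. The plus strand held 84.6% of these NPC reads in Gse1, 85.0% in Scube1 and 75% in Plec, but 36.4% in Atp9a and 13.3% in Nrxn2, and in Mtss1 they were split evenly between strands. Whether the strand imbalance bears on the levels was not tested.

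The windows were laid around enriched runs, so a higher level inside than outside follows in part from their choice, and the regions around them are given as a description. The level in the 100 kb below Mtss1 was 1.13 (0.964 to 1.32) in ESC and 0.508 (0.361 to 0.700) in NPC. Above it the levels were 1.60 (1.38 to 1.86) and 1.51 (1.24 to 1.84). Below Scube1, NPC stood at 0.802 (0.635 to 1.004) and ESC at 1.82 (1.61 to 2.07), with a ratio of 0.0826 (0.0633 to 0.107), against 0.431 (0.346 to 0.539) on the upper side of the window. Below Gse1 the level was 2.96 (2.66 to 3.29) in ESC and 3.01 (2.64 to 3.42) in NPC, so that the 5hmC-rich region reached beyond that window. Nrxn2 too went on below its window, at 2.71 (2.42 to 3.05) in ESC and 1.65 (1.38 to 1.96) in NPC. Around Atp9a, ESC stayed at 2.45 (2.20 to 2.74) below and 2.22 (1.96 to 2.53) above, under the 3.81 of the window. NPC there stood at 1.83 (1.55 to 2.15) and 1.68 (1.38 to 2.03), beside the 1.60 (1.35 to 1.89) of the window, and over the nearest 50 kb at 2.10 (1.67 to 2.63) below and 1.01 (0.704 to 1.42) above. Around Plec, ESC stood at 1.64 (1.45 to 1.85) below and 2.24 (1.99 to 2.53) above, far under the 6.92 (5.85 to 8.24) of the lower side of the window. The NPC interval at Plec included the genome-wide level on both sides of the window (1.05, 0.772 to 1.40, and 1.12, 0.794 to 1.55) and above it (0.957, 0.765 to 1.19). Below it NPC were higher, at 1.29 (1.07 to 1.55) over 100 kb and 1.4997 (1.17 to 1.91) over the nearest 50 kb.

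**Figure D4:**
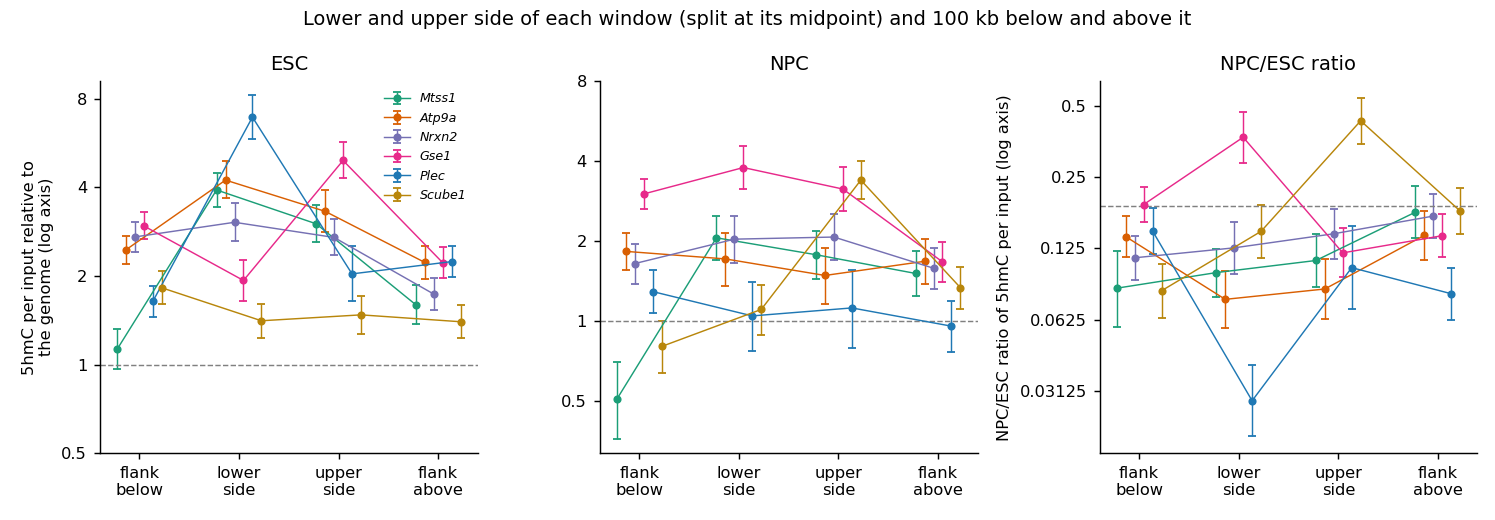
ESC level, NPC level and NPC/ESC ratio of 5hmC per input on log axes for the lower and upper side of each window, split at its midpoint, and for 100 kb below and above it, with 95% counting intervals. Dashed lines mark the genome-wide level or ratio. The ratio drops to 0.0284 on the lower side of Plec, and rises to 0.368 on the lower side of Gse1 and to 0.431 on the upper side of Scube1.

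Input coverage differed little between the cell types. Its NPC/ESC ratio, scaled to depth, was between 0.898 and 1.09 at Mtss1, Atp9a, Nrxn2, Plec and Scube1, with intervals that included 1. At Gse1 it was 0.816 (0.716 to 0.932), which raises the NPC/ESC ratio of that window by construction. With summed inputs, the ratio of Gse1 was 0.152, below the genome-wide value. Stacked reads were rare, at no more than 1.04 reads per position in each library and window. Reads of a single strand gave the same order of ratios as both together. On the plus strand the ratio was 0.0499 at Plec, 0.0703 at Atp9a, 0.116 at Mtss1, 0.166 at Nrxn2, 0.2003 at Gse1 and 0.325 at Scube1. On the minus strand it was 0.0351, 0.0888, 0.0899, 0.108, 0.172 and 0.236. The plus strand held 59.1% (56.8 to 61.4) of the ESC 5hmC reads at Plec, against 52.4% (46.3 to 58.6) of its ESC input reads, and between 48.6% and 53.3% of ESC 5hmC reads in the other windows. Of the NPC 5hmC reads it held 62.0% (52.2 to 71.2) at Plec, 57.8% (52.1 to 63.4) at Mtss1 and 57.1% (52.1 to 62.1) at Scube1. At Nrxn2, Gse1 and Atp9a it held 55.6%, 52.0% and 48.5% of them. Its share of NPC input reads was between 46.7% and 51.3%. Of the window tiles with at least 20 NPC 5hmC reads, 3 of 24 had over 75% of them on 1 strand, against 20.6% of such tiles over the genome.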

How the data were processed

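Per the labels' protocols, sonicated DNA (under 500 bp) of ESC and NPC was ligated to barcoded adaptors, about 4 µg of each was pooled, 10% was kept aside as input, and the remainder was immunoprecipitated using 4 µg of antibody. Products went through 10 to 12 PCR cycles. Reads are on build mm9, and Bowtie 0.12.7 is named per the submitters' processing notes. The treatment of multiple matches is not given in the sources used here. The deposited files list read positions extended to 350 bp with a whole-number read count, taken as raw counts.

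Distinct reads (1 per line) were placed by their midpoint in the windows and in 5 kb tiles with numpy 2.4.6 and pandas 2.3.3 under Python 3.11.15, and intervals came from scipy 1.17.1. Figures were drawn with matplotlib 3.10.9. A tile belonged to the window that held its centre. Tiles with under 5 summed input reads, or over 5 times the median of 22, were left out. Tile calls used a pseudocount of 0.5 reads, and printed tile levels, ratios and intervals did not. Intervals of 95% were exact (Clopper-Pearson for a level against the genome, conditional for a ratio), or a normal approximation of the log ratio for counts beyond 2000. PCR reads are not independent molecules. Named tiles were the highest in ESC and in NPC, and the lowest and highest ratio among tiles with 10 or more 5hmC reads in either cell type. Intervals are not adjusted for that selection. Tile calls and the interval of the ratio were tested on simulated data that held counting noise only. The interval was tried at counts of the size of a window, not of a tile.

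The genes, windows and rules were chosen with earlier results of these data known. Family members of the 6 genes had been planned as a comparison and were not analysed here, since no mm9 annotation was used. RefSeq tables (GRCm38.p6) gave symbols and promoter sequences only.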

Additional observations from a re-analysis of the deposited data

Results flagged for a closer look

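The tile of the Gse1 window with the highest NPC/ESC ratio, from 123055001 to 123060000 on chromosome 8, drew attention because NPC exceeded the level of their genome there and ESC fell short of theirs, and both counting intervals excluded 1. It stood at 4.02 times that level in NPC (1.91 to 8.50) and at 0.463 times in ESC (0.225 to 0.927). With single libraries the difference was not tested. The tile was selected as an extreme of the 20 tiles of its window, and then flagged from among the named extremes of all the windows. Its NPC 5hmC reads numbered 17, with 58.8% on the plus strand.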

How the results depend on the processing

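Each window's ESC level, NPC level and ratio was recomputed with all deposited reads, with summed inputs, over kept tiles lying fully inside, without the tile richest in ESC 5hmC, and with 10 kb added on each side. Of 90 such values 87 stayed within the counting interval of the reported one, and no level crossed the genome-wide 1. Some of these values could not move. Outside Nrxn2 the tiles lying fully inside cover the window exactly, so they repeat the reported values. Stacked reads were rare, so all deposited reads could change little. With summed inputs Gse1 moved to a ratio of 0.152 and an ESC level of 3.89, and without its richest tile its ratio was 0.210, on the other side of the genome-wide 0.188. Without its richest tile, Plec fell to an ESC level of 3.902. The ratio of Plec ran from 0.0407 to 0.0489 and that of Scube1 from 0.252 to 0.307. Of 28 recomputed tile counts over the 6 windows 23 stayed within 1.5 times the reported one. A fold of 3 over input left 61 ESC and 31 NPC tiles in the windows, beside 4.05% and 3.02% of all kept tiles. A minimum of 20 5hmC reads left 24 NPC tiles, beside 1.04% of all kept tiles, and 10 tiles above the genome-wide ratio (9.90%, against 6.55% of enriched tiles over the genome). A pseudocount of 5 reads left 27 tiles below it (25.5%, against 14.6%). No paired analysis was possible because each group held 1 library. The NPC 5hmC library had the fewest reads, and tiles of 1 to 5 NPC reads give wide intervals. Calls at matched depth were not computed.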
